A study of Saccharomyces cerevisiae with 12 samples.

Results

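Growth in hypoxia without Set4 was examined by comparing 3 RNA libraries of set4Δ cells with 3 of wild-type cells, over every named gene with a mean of at least 10 normalized counts in either genotype. That rule kept 5875 genes, of 6078 gene names found in the 4 tables of the series, and 6 of its 12 libraries. All cells were budding yeast of the BY4741 background, mating type a, a haploid laboratory strain that carries his3Δ1, leu2Δ0, met15Δ0 and ura3Δ0. No further change is given for the wild-type strain, and in the set4Δ strain the SET4 gene is replaced by the HIS3MX cassette, so that this strain differs by a marker as well as by the deletion. Both were grown in rich medium (YPD) at 30 °C, sealed in anaerobic pouches for 18 h until mid-log phase. The other 6 libraries come from the same strains grown in air and are used below as a separate measurement of the same contrast. Each genotype is 1 strain. The labels number the libraries without saying that each is a separate culture, so that p-values measure the spread between these libraries. In RNA from whole cultures, fewer cells that express a gene and less RNA per cell cannot be told apart.

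Set4 is a yeast protein with a SET domain and a PHD finger, related to Set3, a subunit of a histone deacetylase complex, and its gene is known to be induced when oxygen is scarce. Without oxygen, yeast can make neither sterols nor unsaturated fatty acids, takes up sterols from the medium through the transcription factor Upc2, and exchanges a set of cell wall mannoproteins for another that includes the DAN, TIR and seripauperin (PAU) proteins. PAU genes form a family of near-identical copies, most of them close to chromosome ends, in the regions where silencing by Sir proteins and deacetylases can keep genes off.

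SET4 itself is not among the genes of the table that compares the genotypes in hypoxia, and was read from the tables of each genotype's response to hypoxia, which were normalized separately. Those tables exchange the numbers 1 and 3, and the values are given in the order of libraries used below. Wild-type hypoxic libraries held 8574, 4898 and 5291 normalized counts of SET4, and set4Δ hypoxic libraries 26.0, 16.6 and 21.2. All of the set4Δ values lay far below all of the wild-type values, as the labels state. Wild-type cells in air held 199, 217 and 161 normalized counts in the same kind of table. SET4 lies on chromosome X (R64 assembly, chrX:225055-226737, plus strand), and 173 genes of both response tables, SET4 included, are not in the comparison of genotypes and were not tested here.

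The labels of strain and condition were then set against marker genes. LEU2, URA3 and MET17, which BY4741 lacks, are not among the genes of the table, and HIS3, of which the strain keeps a part, ranged from 2562 to 4561 normalized counts with overlapping genotypes. All 5 genes of mating type a were present, and their summed level was 8845 to 11826 in wild-type and 9253 to 17983 in set4Δ libraries. Of 4 genes of mating type α, 3 were listed, with sums of 785 to 1083 and 913 to 1101, most of it from SAG1. All 7 hypoxic markers were present, with sums of 50321 to 97375 in wild-type and 79841 to 160522 in set4Δ libraries, and the 5 genes of aerated cells summed to 12371 to 16550 and 10147 to 15935. In wild-type cells the hypoxic markers were above their level in air, except AAC3 (310 to 482 against 386 to 436). Of the genes of aerated cells, HYP2 and CYC1 were lower in hypoxia. AAC1 (1023 to 1368 against 231 to 267), ROX1 (1328 to 1851 against 789 to 863) and COX5A (1297 to 1549 against 1102 to 1178) were higher. The values in air were normalized separately. The libraries held 16.7 M to 21.3 M reads in listed genes, and their 10 most abundant genes took 28.3 to 31.5% of the normalized counts.

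Library 1 of each genotype stood apart from the others, more clearly in set4Δ than in wild-type cells. Over 5558 genes with a mean of at least 100, a single axis carried 79.2% of the variance within genotypes, and on it the wild-type libraries lay at 0.46, -0.41 and -0.05 and the set4Δ libraries at 0.64, -0.35 and -0.29. HSP26, a small heat shock protein chosen here after its values were seen, shows the pattern with 55919.6, 6615 and 15104 normalized counts in wild-type libraries and 48412, 4471 and 5525 in set4Δ libraries. SUL1, a sulfate permease chosen in the same way, ran the other way with 9524, 29134 and 14096 against 6157, 25797 and 26494. What set library 1 apart was not tested, and the counts of the lists described below are also given without both of these libraries.

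Few genes passed the test between set4Δ and wild-type cells in hypoxia, and most of the large changes were increases. By limma, with p-values adjusted over all 5875 genes, 71 genes (1.21% of those tested) passed an adjusted p of 0.05. They comprised 48 genes higher in set4Δ cells (0.817%) and 23 genes lower (0.391%), and 774 genes had an unadjusted p below 0.05. The median log2 fold change was 0.85 over the genes called higher and -0.74 over those called lower, against -0.01 over all genes. A change of 1 or more on the log2 scale was seen in 20 of the higher and 7 of the lower genes. In wild-type cells, genes called lower had a median level of 2652 normalized counts, against 747 for genes called higher and 973 for all genes. Wild type is 1 side of the comparison that set the direction of these calls, so part of that difference follows from the direction. In each of the 71 genes the 3 set4Δ libraries did not overlap with the 3 wild-type libraries, which held for 1152 genes in all (19.6%).

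Without library 1 in both genotypes, a fit referred to below as that without libraries 1, the test called 388 of 5874 genes (6.61%), 212 higher (3.61%) and 176 lower (3%), and all 71 genes were among them. Leaving out single libraries lowered both counts in 5 of 6 cases. When a wild-type library was left out, the test called 36 genes higher and 11 lower for library 1, 22 and 6 for library 2 and 15 and 4 for library 3. When a set4Δ library was left out, it called 61 and 32 for library 1, 19 and 4 for library 2 and 14 and 3 for library 3. Of the 71 genes, 17 were called in all 6 of these fits. A fit with the library number as a block called 238 genes higher and 198 lower, the 71 among them.

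**Figure D1:**
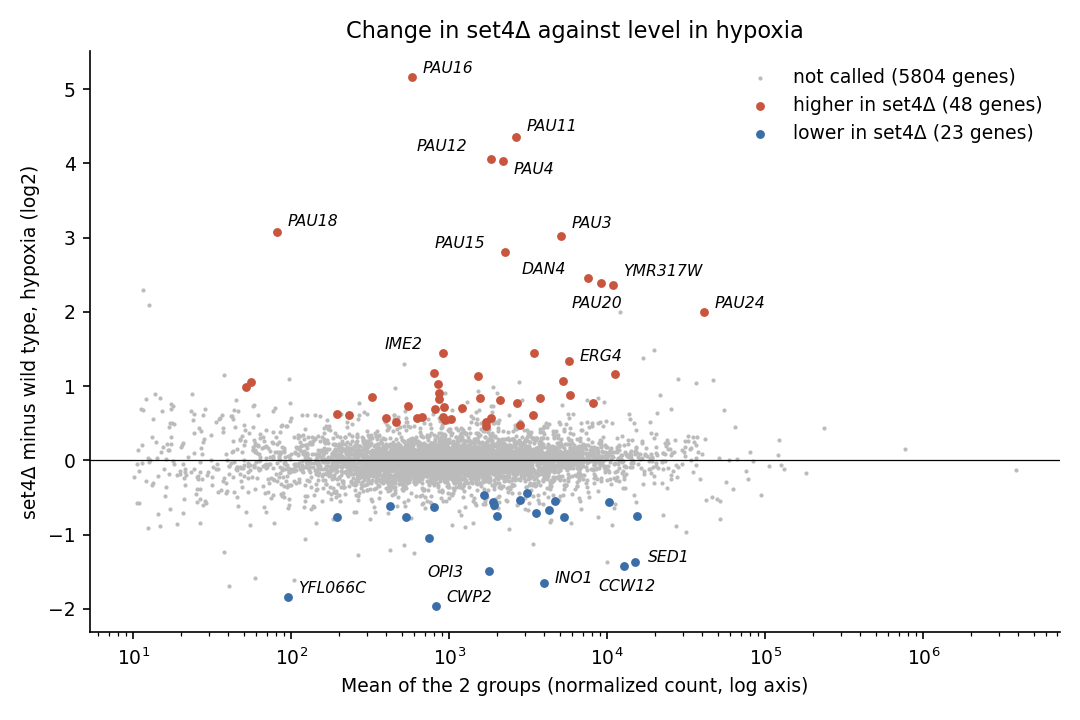
Log2 fold change of set4Δ over wild type in hypoxia (vertical axis) against the mean of the genotypes in normalized counts (horizontal log axis), 1 point per gene, with the 48 genes called higher in red and the 23 called lower in blue. Seripauperin genes hold the upper part of the plot, up to 5.16 for PAU16, and CWP2 the lowest called value at -1.96.

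Promoters are shown for 4 of the changed genes, since these are among the strongest changes of the wall and phospholipid genes and their known regulators have short, defined sites. Each is the stretch from 400 to 101 bases before the coding start, in the direction of transcription, from RefSeq (R64). The sources used here do not name the build of the authors' alignment. Capitals mark matches on either strand to TCGTTNAG and TCGTATA, forms of the site of Upc2, to ATTGTT, the core of the site of the hypoxic repressor Rox1, and to CATGTG, the core of the element through which Ino2 and Ino4 act on phospholipid genes. None of the marked matches overlap. PAU11 and DAN4 encode wall mannoproteins that were higher in set4Δ cells, and INO1 and OPI3 encode enzymes of phospholipid synthesis that were lower. The OPI3 stretch covers part of the coding sequence of MOG1, which is transcribed away from it.
PAU11 (chrVII:6753-7052, minus strand): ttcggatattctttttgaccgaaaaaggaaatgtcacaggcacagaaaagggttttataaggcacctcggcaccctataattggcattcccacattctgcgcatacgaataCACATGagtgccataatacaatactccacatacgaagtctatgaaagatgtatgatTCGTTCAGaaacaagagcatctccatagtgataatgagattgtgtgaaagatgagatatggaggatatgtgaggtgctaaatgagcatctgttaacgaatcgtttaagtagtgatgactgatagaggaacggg
DAN4 (chrX:715841-716140, minus strand): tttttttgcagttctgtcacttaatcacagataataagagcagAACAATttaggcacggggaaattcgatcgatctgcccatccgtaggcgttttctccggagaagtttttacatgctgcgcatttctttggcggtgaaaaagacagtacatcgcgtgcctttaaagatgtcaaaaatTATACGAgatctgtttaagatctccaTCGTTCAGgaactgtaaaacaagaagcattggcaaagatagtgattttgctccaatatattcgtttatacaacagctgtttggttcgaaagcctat
INO1 (chrX:136034-136333, minus strand): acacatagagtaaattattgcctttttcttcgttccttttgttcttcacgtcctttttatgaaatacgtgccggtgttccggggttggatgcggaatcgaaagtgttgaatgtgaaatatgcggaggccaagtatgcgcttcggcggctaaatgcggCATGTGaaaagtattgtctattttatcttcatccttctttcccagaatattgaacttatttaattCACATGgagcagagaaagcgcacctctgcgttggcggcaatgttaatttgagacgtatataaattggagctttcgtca
OPI3 (chrX:573036-573335, minus strand): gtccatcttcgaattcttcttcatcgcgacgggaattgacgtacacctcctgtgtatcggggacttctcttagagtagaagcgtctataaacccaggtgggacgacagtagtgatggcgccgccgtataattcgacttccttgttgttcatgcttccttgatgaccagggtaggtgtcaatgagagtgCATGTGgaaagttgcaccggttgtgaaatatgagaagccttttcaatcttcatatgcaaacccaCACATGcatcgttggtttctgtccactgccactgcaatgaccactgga

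Seripauperins, small wall mannoproteins with a role in anaerobic growth, made up the largest group of changed genes. Of 24 named PAU genes 21 were tested, 10 were higher in set4Δ cells and 0 were lower by limma, against 16 and 0 at an unadjusted p below 0.05. Their median log2 fold change was 2.00, against -0.01 over all genes, all 21 had a value above 0, and in 17 every set4Δ library lay above every wild-type one. Over all genes 6.59% were higher at an unadjusted p below 0.05 and 9.57% had every set4Δ library above every wild-type one. Summed over the 21 genes, wild-type libraries held 202839, 105191 and 117092 normalized counts and set4Δ libraries 481706, 272765 and 307431. These sums were 1.05, 0.550 and 0.611% of the wild-type libraries and 2.47, 1.40 and 1.62% of the set4Δ libraries. Library 1 was the highest of each genotype, and every set4Δ sum lay above every wild-type sum. When both libraries 1 were left out, 18 PAU genes were called higher, with a median of 1.95, where 3.61% of all genes were higher.

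PAU copies share sequence, and the sources used here do not say how reads that match several copies were counted. In 15 of the 21 genes more than 50% of the length lies in words of 50 bases that occur elsewhere in the genome, and 9 of the 10 called genes are among them. Reads of these genes may have been divided among copies or left out, so that the rise of a single copy is uncertain, more than the rise of the family. The exception among the called genes is PAU3 (chrIII:307801-308175), with 39.0% of its length repeated. PAU3 had 1154, 1068 and 1098 normalized counts in wild-type and 7251, 9773 and 10141 in set4Δ libraries. Its genotypes were separated by a wide margin, with a log2 fold change of 3.02 (SE 0.14, adjusted p = 3.03e-04 from limma).

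PAU16 (chrXI:1810-2181, 75.5% repeated) had 32.9, 26.3 and 29.7 normalized counts in wild-type libraries and 734, 1163 and 1522 in set4Δ libraries. Its mean was 38.5-fold higher without Set4, a log2 fold change of 5.16 (SE 0.26, adjusted p = 3.83e-04). PAU11 (chrVII:6290-6652, 63.1% repeated), whose promoter is printed above, had 319.7, 160.0 and 276 against 5845, 3782 and 5568, which is a log2 fold change of 4.36 (SE 0.28, adjusted p = 0.00116). Both genes were among the lower ones of the family in wild-type cells, and neither overlapped between genotypes. PAU12 (chrVII:1080306-1080668, 82.5% repeated) had 177, 286 and 149.6 against 1990.0, 3960.1 and 4494, with a log2 fold change of 4.06 (SE 0.35, adjusted p = 0.00368). PAU4 (chrXII:1062919-1063281, 62.1% repeated) had 265, 264 and 228 against 3907, 3878 and 4651, with a log2 fold change of 4.03 (SE 0.10, adjusted p = 1.3e-05). PAU4 had the smallest standard error of these genes. PAU24 (chrII:809057-809419, 52.9% repeated) began higher, with 16297, 19184 and 14334 in wild-type libraries, and reached 67720.1, 62834 and 67081 in set4Δ libraries, with a log2 fold change of 2.00 (SE 0.15, adjusted p = 0.00193). The other called members were PAU18 at 3.08, PAU15 at 2.80, PAU20 at 2.39 and PAU8 at 1.44. PAU8 was called in 1 and PAU20 in 3 of the 6 fits that left out a library, and the other 8 in all 6.

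The 11 PAU genes that missed the threshold include the most abundant ones. PAU2 had 43735, 21149 and 23934 normalized counts in wild-type libraries and 96041, 45454 and 48005 in set4Δ libraries. Library 1 was the highest of each genotype, and set4Δ libraries 2 and 3 lay just above the highest wild-type one, with a log2 fold change of 1.08 (SE 0.38, adjusted p = 0.302). PAU19, at 6935, 2790.4 and 4658 against 29559, 13254 and 14614, did not overlap between genotypes but had an adjusted p of 0.0841. PAU13 had 14241, 7302 and 9394 against 42549.8, 20193 and 25064, also without overlap, and an adjusted p of 0.115. PAU21, a copy of PAU22 with its whole length repeated, was near the limit of what these libraries measure, at 8.22, 2.29 and 2.20 against 31.2, 8.96 and 22.3 (adjusted p = 0.244). PAU22 had 10.05, 8.0 and 7.70 against 20.5, 11.95 and 11.6, with an adjusted p of 0.515. PAU17, at 39035, 22808 and 24176 against 48973, 26693 and 33019.9, had the smallest log2 fold change of the family, 0.33 (SE 0.29, adjusted p = 0.718).

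**Figure D2:**
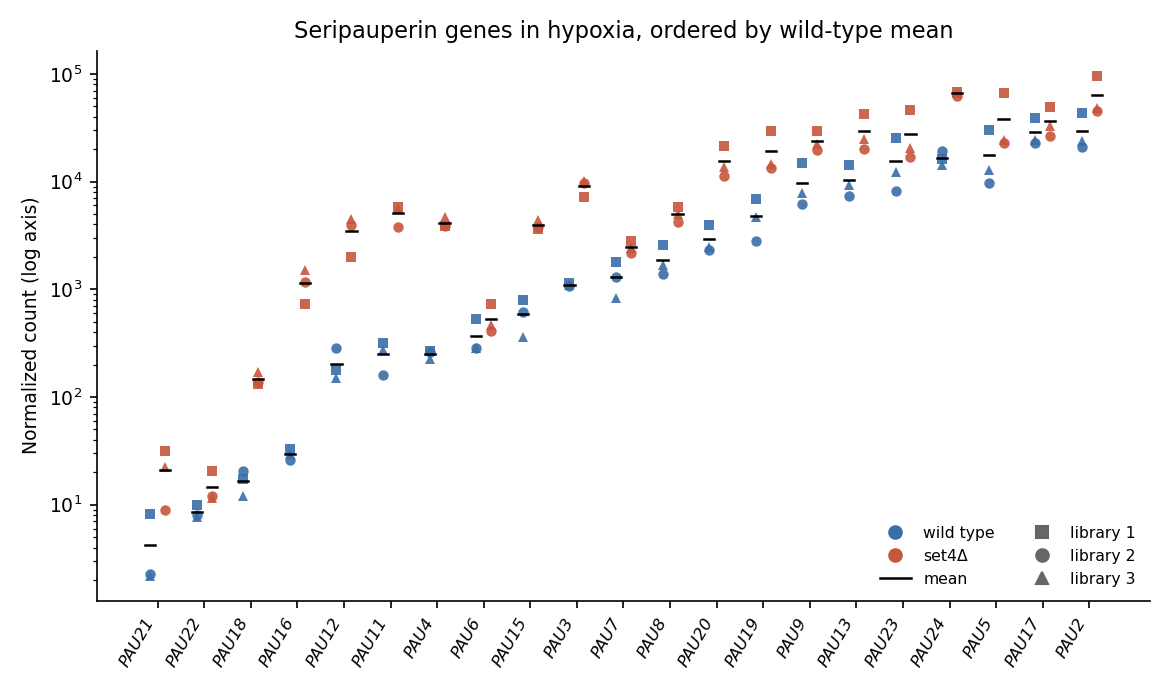
Normalized counts (log axis) of the 21 tested seripauperin genes in each hypoxic library, wild type in blue and set4Δ in red, squares for library 1, circles for library 2 and triangles for library 3, with a bar at the mean. Genes stand in order of their wild-type mean from 4.24 (PAU21) to 29606 (PAU2), and the genotypes are farthest apart in PAU16, PAU12, PAU11 and PAU4, which were low in wild-type cells.

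The DAN and TIR genes encode the other wall mannoproteins of anaerobic cells. Of the 6 genes 2 were higher in set4Δ cells and 0 lower by limma, at an unadjusted p below 0.05 and without libraries 1. The shares of all genes that were higher were 0.817, 6.59 and 3.61% in the same order. The median log2 fold change of the list was 0.59. DAN4 (chrX:712255-715740) had 2144, 2277 and 2501 normalized counts in wild-type libraries and 15214, 11849.5 and 11247 in set4Δ libraries. The genotypes were far apart, with a log2 fold change of 2.46 (SE 0.13, adjusted p = 5.65e-04), and DAN4 was called in all 6 fits that left out a library. TIR2 had 582, 664 and 608 against 918, 1193 and 1195, without overlap, a log2 fold change of 0.82 (SE 0.12, adjusted p = 0.0324), and was called in 1 of those 6 fits. DAN1, close to DAN4 on chromosome X, had 17273, 8209 and 11069 against 25823, 12555 and 13633. Its genotypes overlapped, with a log2 fold change of 0.50 (SE 0.35, adjusted p = 0.627). TIR1, the most abundant of the list, had 57340.1, 28236 and 40828 against 101541, 49605 and 53378, overlapping as well (adjusted p = 0.49).

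YMR317W (chrXIII:907364-910786), an uncharacterized gene 13.6 kb from the right end of its chromosome, rose with the mannoproteins. It had 3028, 3897 and 3649 normalized counts in wild-type libraries and 21623, 16449 and 16667 in set4Δ libraries, with a log2 fold change of 2.37 (SE 0.15, adjusted p = 0.00116). Every set4Δ library was more than 4 times as high as the highest wild-type one. Of its length 4.83% is repeated.

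Among the wall mannoproteins listed here for aerated cells, CWP2, CCW12, SED1 and TIP1 were lower in set4Δ cells. SED1 and TIP1, however, were higher in hypoxia than in air in wild-type cells, so the name of the list does not describe them. Of 15 named genes 14 were tested, 0 were higher and 4 lower in set4Δ cells by limma, against 0 and 8 at an unadjusted p below 0.05, and the median log2 fold change was -0.51. At that unadjusted p 6.59% of all genes were lower. CWP2 (chrXI:259253-259531), a major mannoprotein of the wall, had 1067, 1523 and 1339.8 normalized counts in wild-type libraries and 278, 391 and 336 in set4Δ libraries. Its wild-type mean was 3.91 times that of set4Δ cells and the genotypes were well apart, with a log2 fold change of -1.96 (SE 0.17, adjusted p = 0.00363). CCW12 (chrXII:369697-370098), a mannoprotein needed for wall stability in new buds, had 16811, 18133 and 20685 against 6806, 7294 and 6609. Its log2 fold change was -1.42 (SE 0.11, adjusted p = 0.00229), and like CWP2 it was called in all 6 fits that left out a library.

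SED1 (chrIV:600793-601809), the main wall protein of resting cells, had 26031, 18807 and 20209 normalized counts in wild-type libraries and 10994, 6779.8 and 7632 in set4Δ libraries. Library 1 was the highest of each genotype, and the genotypes did not overlap, with a log2 fold change of -1.37 (SE 0.21, adjusted p = 0.0356). SED1 was called in 1 of the 6 fits that left out a library. TIP1 (chrII:372103-372735), a mannoprotein induced by cold, had 7235, 6147 and 6891 against 3769, 4145 and 3990.1, with a log2 fold change of -0.77 (SE 0.09, adjusted p = 0.0179), and was called in 3 of them. The 10 other genes include CWP1, at 346, 223 and 362 against 203, 181 and 179, with an adjusted p of 0.191. Without libraries 1, 7 of the 14 genes were lower, against 3% of all genes.

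Other wall genes were seldom called. Of the 5 PIR proteins, which are linked to wall glucan, none was called by limma, with 2 lower at an unadjusted p below 0.05 and 3 called lower without library 1 in both genotypes, and their median log2 fold change was -0.35. HSP150, the most abundant of them, had 69451, 53457 and 59751 normalized counts in wild-type and 49734, 36290.4 and 39602 in set4Δ libraries, which did not overlap (log2 fold change -0.54, SE 0.19, adjusted p = 0.285). None of 31 enzymes of glucan and chitin synthesis was called by limma, with 2 higher and 10 lower at an unadjusted p below 0.05 and a median of -0.24, and 1 was higher and 4 were lower without libraries 1. The shares over all genes were 6.59% in each direction at an unadjusted p below 0.05, and 3.61% higher and 3% lower without libraries 1. SHC1, an activator of chitin synthase chosen by the size of its change, was lower at 133, 152 and 146 in set4Δ against 241, 261 and 229 in wild-type libraries (log2 fold change -0.76, SE 0.10, adjusted p = 0.0252). TOH1, a wall-associated protein of unknown function, was lower at 1509, 1568 and 1435 against 2577, 2649.8 and 2342 (log2 fold change -0.75, SE 0.08, adjusted p = 0.0103). SHC1 was called in 1 and TOH1 in 4 of the 6 fits that left out a library, and neither gene overlapped between genotypes.

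Of the genes of phospholipid synthesis, INO1, OPI3, CHO2 and ITR1 were lower in set4Δ cells, and the other 14 of the list did not pass the test. When inositol is scarce, Ino2 and Ino4 switch on enzymes that make inositol and phosphatidylcholine, and Opi1 represses them. Of 18 genes of the list 0 were higher and 4 lower by limma, against 0 and 9 at an unadjusted p below 0.05, and the median log2 fold change was -0.29, with 16 genes below 0. At that unadjusted p 6.59% of all genes were lower. INO1 (chrX:134332-135933), which makes inositol phosphate from glucose phosphate, had 4900.1, 8164 and 5098 normalized counts in wild-type libraries and 1398, 2190.2 and 2118 in set4Δ libraries. Library 1 was the lowest of each genotype and the genotypes did not overlap, with a log2 fold change of -1.66 (SE 0.25, adjusted p = 0.0328). INO1 was called in 1 of the 6 fits that left out a library.

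OPI3 (chrX:572315-572935), which carries out the last methylations to phosphatidylcholine, had 2292, 2886 and 2777 normalized counts in wild-type libraries and 1044, 862 and 914 in set4Δ libraries. Its log2 fold change was -1.49 (SE 0.12, adjusted p = 0.00229), and it was called in all 6 fits. MOG1 (chrX:573095-573751), a factor of nuclear import, starts 159 bases from OPI3 in the opposite direction and was lower too. It had 649.5, 727 and 637 against 395, 376 and 411, with a log2 fold change of -0.76 (SE 0.08, adjusted p = 0.0103) and no overlap between genotypes, and was called in 3 of those fits. CHO2, which carries out the first of these methylations, had 4566, 4290.1 and 4363 against 3072, 2453 and 2587 (log2 fold change -0.71, SE 0.10, adjusted p = 0.0318). ITR1, the main inositol transporter, had 17293, 21222 and 19356 against 10346, 11896 and 12271 (log2 fold change -0.74, SE 0.13, adjusted p = 0.0493). CHO2 and ITR1 did not overlap between genotypes, but CHO2 was called in 1 and ITR1 in 0 of the 6 fits that left out a library.

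The regulators of these genes did not pass the test. INO2 had 1905, 1714 and 1503 normalized counts in wild-type and 1154, 1302 and 1411 in set4Δ libraries, a log2 fold change of -0.40 (SE 0.12, adjusted p = 0.21). INO4 was at -0.36 (SE 0.11, adjusted p = 0.239) and the repressor gene OPI1 at -0.23 (SE 0.15, adjusted p = 0.587). CHO1, the phosphatidylserine synthase, was at -0.58 (SE 0.13, adjusted p = 0.111). PIS1, which makes phosphatidylinositol, was at -0.05 (SE 0.10, adjusted p = 0.904). Without libraries 1, 8 of the 18 genes were lower, against 3% of all genes.

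Of the sterol genes, ERG4 and ECM22 rose. ERG4 (chrVII:472855-474276), the enzyme of the last step to ergosterol, had 3294, 3196 and 3166 normalized counts in wild-type libraries and 8992, 8012 and 7572 in set4Δ libraries. The wild-type values were close together and the set4Δ values lay far above them, with a log2 fold change of 1.34 (SE 0.09, adjusted p = 0.00138), and ERG4 was called in all 6 fits. ECM22 (chrXII:600019-602463), a transcription factor of sterol genes related to Upc2, had 800.2, 1030.0 and 1001 against 1799, 2202 and 2245. Library 1 was the lowest of each genotype, and the genotypes did not overlap (log2 fold change 1.14, SE 0.13, adjusted p = 0.0138), and it was called in 3 of those fits.

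ERG4 was the single gene called among 26 genes of ergosterol synthesis, whose median log2 fold change was 0.15, with 20 genes above 0. At an unadjusted p below 0.05 5 were higher and 0 lower, where 6.59% of all genes were higher. Every set4Δ library lay above every wild-type one in 9 of the 26, which held for 9.57% of all genes. Without library 1 in both genotypes 4 of the 26 were called higher, where 3.61% of all genes were higher. ERG3, the C-5 desaturase, had 18348, 17568 and 17647 normalized counts in wild-type and 23097, 22199.9 and 22964 in set4Δ libraries. These did not overlap, with a log2 fold change of 0.35 (SE 0.10, adjusted p = 0.21). ERG11, the lanosterol demethylase, had 36622, 32545 and 29439 against 43246, 39506 and 39847, also without overlap (log2 fold change 0.32, SE 0.14, adjusted p = 0.395). Among 13 genes for the regulation and uptake of sterols, ECM22 was the single gene called, and 3 were higher without libraries 1. UPC2 had 17537, 14760.0 and 12992 against 19833, 17444 and 16863, overlapping, with an adjusted p of 0.495. AUS1, a sterol importer, had 25716, 13671 and 17791 against 47162, 23344 and 24265, overlapping as well (adjusted p = 0.439). Library 1 was the highest of each genotype in both genes.

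**Figure D3:**
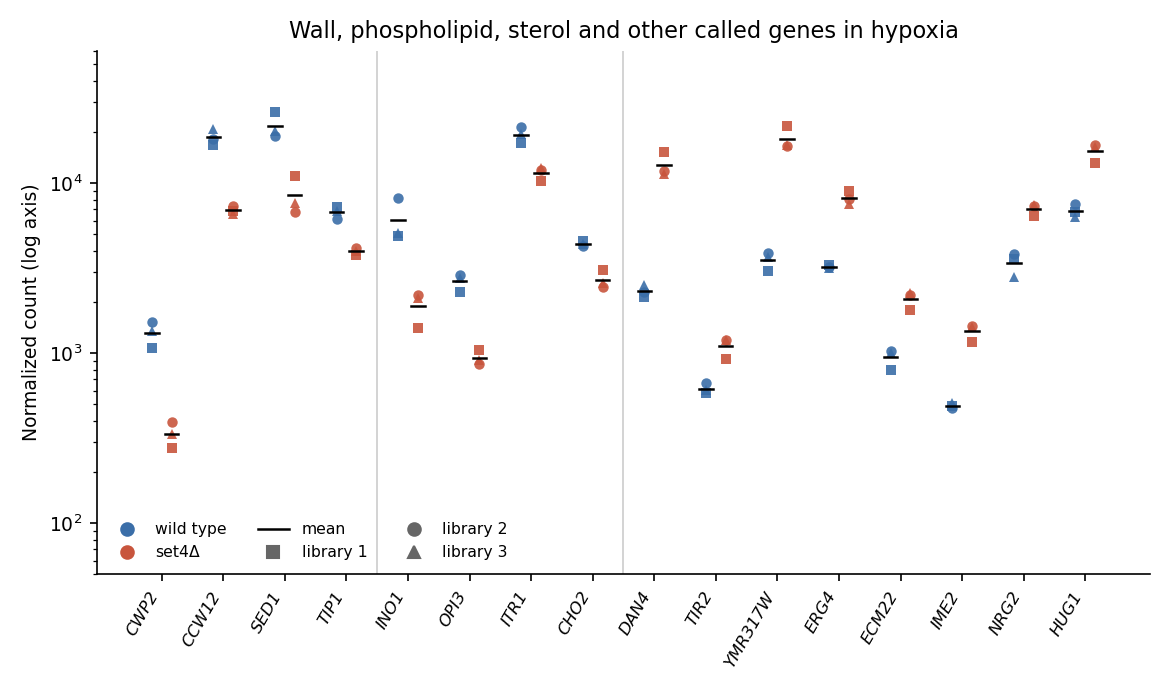
Normalized counts (log axis) in each hypoxic library of 16 genes in 3 blocks, wall mannoproteins listed for aerated cells, phospholipid genes, and genes higher in set4Δ cells, with wild type in blue, set4Δ in red, shapes for libraries 1 to 3 and a bar at the mean. In every gene shown the 3 red points do not overlap the 3 blue ones. These genes were picked from the 71 called ones, none of which overlapped between genotypes.

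The genes beside SET4 were looked at because the deletion cassette lies between them. IME2 (chrX:221390-223327), a protein kinase of meiosis, had 488, 473 and 510.4 normalized counts in wild-type libraries and 1163, 1434 and 1423 in set4Δ libraries. The genotypes were well separated, with a log2 fold change of 1.44 (SE 0.10, adjusted p = 0.00138), and IME2 was called in all 6 fits. In air, with the same cassette in place, IME2 had a mean of 322 ± 11.7 (SD, n = 3) in wild-type and 322 ± 50.6 (SD, n = 3) in set4Δ cells. PAM16, on the other side, had 780.1, 804 and 774 against 702, 844 and 803, overlapping (log2 fold change -0.01, SE 0.09, adjusted p = 0.976). YJL107C, next to IME2, had 1299, 2052 and 1781 against 712, 1483 and 1372 (log2 fold change -0.57, SE 0.30, adjusted p = 0.483). IME2 was the single gene called among 20 tested genes of meiosis and sporulation, of which 2 were higher and 1 lower without libraries 1. Whether the cassette has a part in its level was not tested.

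Single genes of other lists rose. HUG1 (chrXIII:158760-158966), an inhibitor of ribonucleotide reductase that is induced by DNA damage, had 6714, 7569.8 and 6318 normalized counts in wild-type and 13192, 16756 and 16204 in set4Δ libraries (log2 fold change 1.16, SE 0.13, adjusted p = 0.0126). It was the single gene called among 29 genes of DNA replication and nucleotide supply, with and without libraries 1, and was called in 3 of the 6 fits that left out a library. CYC8, a subunit of the general repressor Cyc8-Tup1, had 2421, 2266 and 2399 against 3431, 3132 and 3254 (log2 fold change 0.47, SE 0.07, adjusted p = 0.0401). It was the single gene called among 25 genes of silencing and histone deacetylation, and was called in 0 of those 6 fits. In that list 1 gene was higher and 1 lower without libraries 1. Neither gene overlapped between genotypes. IMA2, an isomaltase near the left end of chromosome XV, was higher at 251, 241 and 218 against 164, 149 and 147 (log2 fold change 0.62, SE 0.10, adjusted p = 0.0402) and called in 0 of those fits, and 58.9% of it is repeated. Its list of 12 tested maltose and isomaltose genes held 1 called gene, and 2 higher and 1 lower without libraries 1.

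Smaller falls were found in genes of other lists. ZRT1, the high-affinity zinc transporter, had 931, 1044 and 949 normalized counts in wild-type and 570.2, 698 and 629 in set4Δ libraries (log2 fold change -0.63, SE 0.10, adjusted p = 0.0356). PDC6, a minor pyruvate decarboxylase, had 469.6, 578 and 488 against 313, 353 and 331 (log2 fold change -0.62, SE 0.10, adjusted p = 0.0457). THI7, a thiamine transporter, had 1979, 1907 and 1864 against 1355, 1449 and 1347 (log2 fold change -0.47, SE 0.07, adjusted p = 0.0327). Each was the single gene called in its list, of 11 genes of zinc supply, 28 of glycolysis and fermentation and 22 of thiamine and pyridoxine synthesis, and in each the genotypes did not overlap. Without libraries 1 the same lists held 2, 4 and 3 genes lower and 0 higher, where 3% of all genes were lower. Of the fits that left out 1 library, ZRT1 and THI7 were called in 1 of 6 and PDC6 in 0. YDR034W-B, an uncharacterized small gene, was lower at 381, 552 and 546 against 966, 967 and 1077 (log2 fold change -1.04, SE 0.15, adjusted p = 0.0318), and was called in 1 of those 6 fits. YFL066C, a helicase-like gene 1.44 kb from the left end of chromosome VI, was lower at 41.0, 31.9 and 49.0 against 106, 187 and 157 (log2 fold change -1.84, SE 0.25, adjusted p = 0.0286) and called in 2 of them, and 99.3% of it is repeated.

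Most Ty retrotransposon genes lay below 0, while the few that passed the test were higher. Of 50 genes, all mostly repeated, 3 were higher and 0 lower by limma, against 5 and 15 at an unadjusted p below 0.05, while the median log2 fold change was -0.24 and 42 genes lay below 0. Over all genes 0.817% were called higher and 0.391% lower, and 6.59% passed the unadjusted p in each direction. Without library 1 in both genotypes 5 Ty genes were called higher and 11 lower, where 3.61% of all genes were higher and 3% lower. The genes called higher were YJL114W and YJL113W, the gag and pol genes of a Ty4 element on chromosome X, and YHL009W-B on chromosome VIII. YJL113W had 6930.0, 5718 and 5446 normalized counts in wild-type and 10666, 9889 and 10169 in set4Δ libraries (log2 fold change 0.77, SE 0.11, adjusted p = 0.0327). YJL114W had a log2 fold change of 0.84 (SE 0.08, adjusted p = 0.00632) and YHL009W-B of 0.60 (SE 0.10, adjusted p = 0.0457), and in these genes too the genotypes did not overlap. YJL114W was called in 4, YJL113W in 2 and YHL009W-B in 1 of the 6 fits that left out a library.

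Most lists held no called gene, which says little about them where 1.21% of all genes were called. None of 139 cytoplasmic ribosomal protein genes, 66 mitochondrial ribosomal protein genes, 48 genes of ribosome biogenesis, 37 genes of the respiratory chain and ATP synthase, 24 heat shock genes, 26 genes of oxidative stress defence, 11 histone genes or 12 SET domain and Set3 complex genes was called by limma. At an unadjusted p below 0.05, 13 respiratory and 6 ribosome biogenesis genes were lower and 6 genes of oxidative stress defence higher, and each other list of these held 1 or 2. Among all genes 6.59% passed in each direction. Their medians ran from -0.21 for the respiratory chain to 0.18 for oxidative stress defence. When both libraries 1 were left out, the same lists held between 0 and 6 called genes each, with 6 (5 higher and 1 lower) in oxidative stress defence. In that fit 6.61% of all genes were called. Of 17 hypoxic genes under Rox1 and Mot3, which include oxygen-regulated paralogs, none was called by limma, 2 were lower at an unadjusted p below 0.05, and the median was 0.08, with 2 higher and 1 lower without libraries 1.

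**Figure D4:**
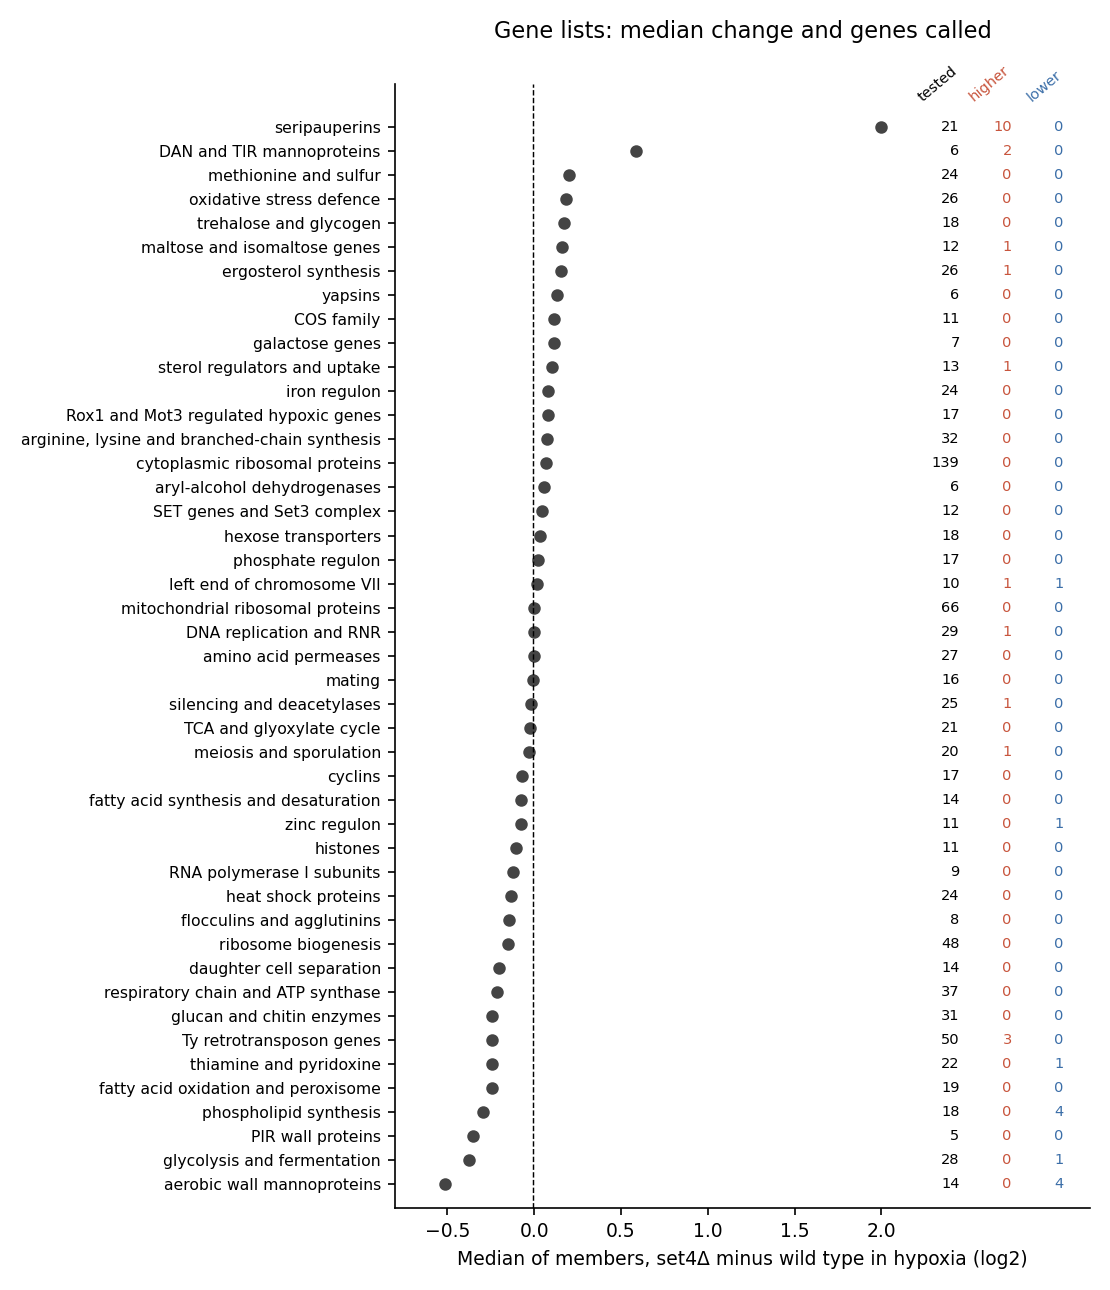
Median log2 fold change of set4Δ over wild type in hypoxia for each gene list (horizontal axis, 1 point per list), with the number of genes tested and called higher and lower printed at the right and a dashed line at 0. The seripauperins have the highest median at 2.00 and the wall mannoproteins listed for aerated cells the lowest at -0.51.

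Genes near chromosome ends were counted because the study treats the 40 kb next to an end as subtelomeric. Of 98 genes within 10 kb of an end, 6 were higher and 1 lower (7.14% called), and of 117 genes from 10 to 20 kb 5 were higher and 0 lower (4.27%; 5 were lower at an unadjusted p below 0.05 by limma). From 20 to 40 kb the count was 5 higher and 1 lower of 278 (2.16%), and beyond 40 kb 32 higher and 21 lower of 5374 (0.986%). Within 40 kb, 16 genes were higher and 2 lower of 493 (3.65%), and 10 of the 16 are PAU genes. Without the PAU genes 6 were higher and 2 lower of 477 (1.68%), and without all genes that are mostly repeated 6 were higher and 1 lower of 396 (1.77%). From the nearest to the farthest distance, the share called without the PAU genes was 1.15, 0.893, 2.16 and 0.987%. It thus did not rise steadily toward the ends. The median log2 fold change was 0.14 within 10 kb and 0.04 from 10 to 20 kb, against -0.01 beyond 40 kb. Genes within 10 kb were also less precise, with a median standard error of 0.23 against 0.11 beyond 40 kb. Without libraries 1, 51 of the 493 genes were higher and 17 lower (13.8% called), against 161 and 159 of 5373 beyond 40 kb (5.96%), so that the lower genes were about as frequent near the ends as over all genes (3%). In that fit PAU genes made up 14 of the 51 higher genes within 40 kb and 4 of the 161 beyond.

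The genes other than PAU called within 40 kb were YMR317W, DAN4, IMA2, YJL218W, YEL067C and HPA3 among the higher and YFL066C and ZRT1 among the lower, the first 2 described above. YJL218W, a putative acetyltransferase named here as 1 of these 8 genes, rose from 34.7, 34.3 and 34.1 to 66.4, 75.7 and 65.9 normalized counts (log2 fold change 0.99, SE 0.15, adjusted p = 0.0353), and was called in 0 of the 6 fits that left out a library. COS genes, a family of membrane proteins at chromosome ends, were not called by limma in any of 11 members tested, and their median was 0.12. Of these genes 1 was higher at an unadjusted p below 0.05, and 2 were called higher without library 1 in both genotypes. The shares of all genes that were higher were 6.59% and 3.61%. At the left end of chromosome VII 10 genes were tested, PAU11 was higher and ZRT1 lower, also without libraries 1. COS12, there, had 51.2, 27.4 and 67.1 against 59.6, 42.8 and 95.3, overlapping (adjusted p = 0.731). YGL262W had 14.6, 8.0 and 25.3 against 24.4, 9.96 and 16.9 (adjusted p = 0.945), and YPS5, an aspartic protease, 74.0, 105 and 135 against 109, 118 and 137 (adjusted p = 0.734). These 3 neighbours of PAU11 overlapped between genotypes.

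Called genes also stood next to each other. Among the 71 there were 7 pairs of direct neighbours, with 14 genes, and the genes of these pairs not yet named were chosen after their values were seen. How many pairs 71 genes placed at random would form was not worked out, so the count is a description only. In 6 pairs both genes changed in 1 direction. They are OPI3 and MOG1, the Ty genes YJL114W and YJL113W, YAP3 and YHL009W-B, HUL4 and YJR039W, ATX2 and DIA2, and YEL067C and HPA3, of which the last overlap by 56 bases. In the remaining pair, NRG2 rose while TIP1 beside it on chromosome II fell. NRG2, a repressor of glucose-repressed genes, had 3578, 3805 and 2799 normalized counts in wild-type and 6399, 7305 and 7468 in set4Δ libraries (log2 fold change 1.06, SE 0.14, adjusted p = 0.0207). HUL4, a ubiquitin ligase, had 1376, 1684 and 1509 against 2618, 2565 and 2813 (log2 fold change 0.81, SE 0.09), and its divergent neighbour YJR039W 2579.8, 2872 and 2579 against 5259, 4333 and 4864 (log2 fold change 0.85, SE 0.10). YAP3, a transcription factor of the Yap family, had 602, 647 and 554 against 1099, 1162 and 1126 (log2 fold change 0.91, SE 0.08). Of the 6 fits that left out a library, YAP3 was called in all, HUL4 and YJR039W in 3 and NRG2 in 2. In none of these genes did the genotypes overlap.

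Promoter motifs were counted in the same stretch of 300 bases for 5821 genes. TCGTTNAG was present in 3.18% of all promoters, in 34% of the 47 promoters of genes called higher and in 0 of 23 promoters of genes called lower. TCGTATA was present in 4.54% of all, 25.5% of the higher and 4.35% of the lower. PAU promoters are copies of each other, and 57.1% of 21 hold TCGTTNAG, so that they do not count as separate genes. Among the 37 other genes called higher, TCGTTNAG was found in 8 (21.6%) and TCGTATA in 10 (27%). The genes with TCGTATA include the divergent neighbours HUL4 and YJR039W, 544 bases apart, whose stretches overlap. They also include the Ty genes YJL114W and YHL009W-B, so not all of these matches are separate sites. ATTGTT was found in 32% of all promoters, 38.3% of the higher and 30.4% of the lower. CATGTG, searched for after the phospholipid genes had been seen, was found in 9.21% of all promoters, in 13 of the 18 phospholipid genes (72.2%) in 17.4% of the genes called lower, in 23.4% of those called higher and in 38.1% of the PAU genes. In the stretches printed above, PAU11 holds 1 match to TCGTTNAG and 1 to CATGTG, DAN4 1 match to each of TCGTTNAG, TCGTATA and ATTGTT, and INO1 and OPI3 2 matches each to CATGTG. These shares are descriptions and no test was run on them.

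The same genes were followed in air, in 6 libraries that the hypoxic comparison does not use. In air limma called 3 of 5814 genes (0.0516%), SET4, PAU24 and YLR285C-A, and 280 had an unadjusted p below 0.05. Of the 71 genes called in hypoxia 64 were measured in air, and the 7 that were not are PAU genes. Of the 41 genes higher in hypoxia 20 had a log2 fold change above 0 in air, and of the 23 lower genes 12 had one below 0. The median log2 fold change in air was -0.0021 for the higher genes and -0.02 for the lower ones, where the same genes had 0.81 and -0.74 in hypoxia. PAU24 was the single gene called in both, at 59.3 ± 9.79 (SD, n = 3) normalized counts in wild-type and 127 ± 25.1 (SD, n = 3) in set4Δ cells in air (log2 fold change 1.08, SE 0.18, adjusted p = 0.0421). In air it was called in 3 of the 6 fits that left out a library and not with a minimum mean of 50 (adjusted p = 0.0609). Of the 11 PAU genes measured in air 10 had a value above 0, with a median of 0.47.

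The difference between the effect in hypoxia and that in air was tested for 5803 genes, and 85 (1.46%) passed. It passed for 46 of the 64 called genes measured in both. Without the third wild-type library in air, whose values had to be taken from another table, 28 genes passed, all among the 85, and 27 of the 46 did. Of the 85 genes 26 passed in all 12 fits that left out 1 library. For CWP2 the difference was -2.14 (SE 0.20, adjusted p = 3.18e-04), since set4Δ cells in air held 30728 ± 3585 (SD, n = 3) normalized counts against 27044 ± 1818 (SD, n = 3) in wild type. For ERG4 it was 1.48 (SE 0.11, adjusted p = 6.09e-05), with 11482 ± 619 (SD, n = 3) against 12588 ± 607 (SD, n = 3) in air. For INO1 it was -1.58 (SE 0.29, adjusted p = 0.0225, and 0.0628 without that library), with 229 ± 32.2 (SD, n = 3) against 241 ± 13.6 (SD, n = 3). For DAN4, where set4Δ cells in air held 194 ± 27.2 (SD, n = 3) against 139.6 ± 16.3 (SD, n = 3), it was 1.99 (SE 0.19, adjusted p = 3.18e-04). For PAU24, called in both conditions, it was 0.92 (SE 0.21, adjusted p = 0.0623) and missed the threshold.

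**Figure D5:**
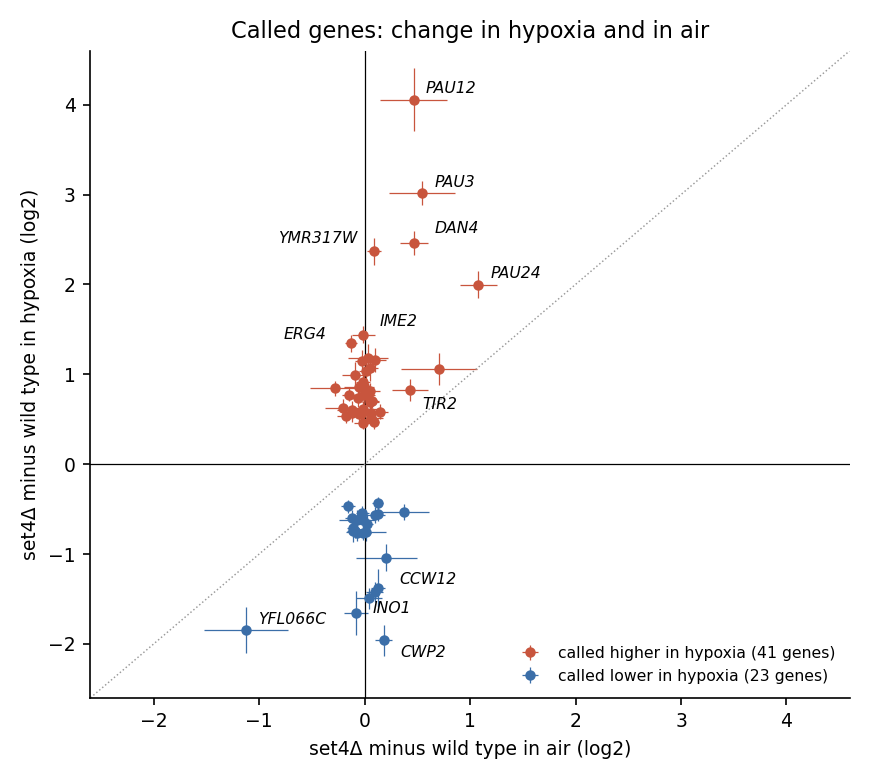
Log2 fold change of set4Δ over wild type in hypoxia (vertical axis) against that in air (horizontal axis) for the 64 called genes measured in both, with bars of 1 standard error and a dotted line of equal change. Most points lie close to 0 on the horizontal axis, with PAU24 at 1.08 and 2.00 and YFL066C at -1.13 and -1.84 nearer to the dotted line.

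The response of each genotype to hypoxia gives the size of these effects beside that of hypoxia itself. These responses share the hypoxic libraries with the comparison above and are set beside it as values. INO1 had a log2 fold change from air to hypoxia of 4.69 (SE 0.18) in wild-type and 3.10 (SE 0.19) in set4Δ cells. OPI3 stood at 1.96 (SE 0.14) and 0.41 (SE 0.13). Both phospholipid genes were thus higher in hypoxia in each genotype, and by less in set4Δ cells. SED1 stood at 0.90 (SE 0.13) and -0.62 (SE 0.17), with opposite signs, and TIP1 at 0.87 (SE 0.08) and 0.16 (SE 0.07). CWP2 went from -4.29 (SE 0.12) in wild type to -6.45 (SE 0.15) in set4Δ cells and CCW12 from -2.97 (SE 0.10) to -4.50 (SE 0.12), so that both were below their level in air in each genotype. ERG4 stood at -1.88 (SE 0.06) in wild-type and -0.42 (SE 0.09) in set4Δ cells. ECM22 stood at -0.04 (SE 0.10) and 1.11 (SE 0.11), and IME2 at 0.69 (SE 0.08) and 2.13 (SE 0.14). DAN4, a gene of anaerobic walls, stood at 4.13 (SE 0.10) and 6.10 (SE 0.13), and PAU3 at 6.10 (SE 0.19) and 8.56 (SE 0.14).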

How the data were processed

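Total RNA of 6 hypoxic and 6 aerated samples, depleted of ribosomal RNA, had been made into stranded TruSeq libraries. The authors used Trimmomatic 0.36 to trim the reads, STAR 2.5.2b to align them, counted them with featureCounts of Subread 1.5.2 and checked them with FastQC. The deposited signal values are counts that the authors scaled with size factors of DESeq2, separately for the 6 libraries of each table. Not given in the sources used here are the DESeq2 version, the genome build, the strand setting and how reads that match several places were counted. Columns with the authors' fold changes, p-values and local FDR were not used. Of 5876 entries 1 names no gene and was left out, and 5868 genes were placed on the R64 assembly. Depth was read from the steps of the low values, which are whole reads within 0.02 for 100% of values below 1000 reads. Higher values were not checked in this way, and no count test was run.

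Tests were run in R 4.3.3 with the limma package (3.58.1), its variance trend on, over log2(normalized count + 1), so that fold changes of low genes are understated, and p-values were adjusted by Benjamini and Hochberg at 0.05. On simulated data of 5870 genes with 200 changed, 87.5% of genes changed by 1.5-fold and 97.5% of those changed by 2-fold were called, and 3.94% of calls were false at 2-fold. The simulated noise was drawn separately for each gene. In the real libraries a single axis carried 79.2% of the variance within genotypes, so these shares do not give the power of the test here. In the table for air, values of the third wild-type library are out of step with the genes (correlation with the same library elsewhere 0.356 across genes, which are not independent replicates), its aligned copy was taken from the table of the wild-type response, and 8 genes were lost. The tables exchange replicate numbers 1 and 3, and libraries were matched by constant ratios. Repeats were counted with words of 50 bases. The rule for naming genes took SET4 and the genes beside it, the 12 largest rises and falls, up to 4 called members of each of 49 lists or the 2 most abundant ones where none was called, the genes the study measured by PCR, and the markers. Not every gene so chosen is described, and some genes are named outside the rule. These include HSP26, SUL1, called genes near chromosome ends or beside another called gene, and uncalled members of lists that held called genes. The genes, lists and tests were chosen with earlier results of these data known. Summaries used Python 3.11.15, pandas 2.3.3 and numpy 2.4.6, and plots matplotlib 3.10.9.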

Additional observations from a re-analysis of the deposited data

Results flagged for a closer look

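In 24 of the genes chosen by the rule given above, the effect of the deletion differed between hypoxia and air by the limma test of the difference, with an adjusted p of at most 0.05 over 5803 genes. Genes named only as neighbours or as lying near chromosome ends are not counted, of which NRG2, YAP3, YJR039W, HUL4, ATX2, DIA2 and YJL218W passed as well. The values given here are the effect in hypoxia minus that in air on the log2 scale. The effect was higher in hypoxia for PAU12 by 3.59, PAU3 by 2.48, YMR317W by 2.28, DAN4 by 1.99, ERG4 by 1.48, IME2 by 1.46, ECM22 by 1.17, the Ty gene YJL114W by 1.12, HUG1 by 1.06, SIT1 by 0.86, the Ty gene YJL113W by 0.77, the Ty gene YHL009W-B by 0.72 and SCW4 by 0.63. Of these, SIT1, an iron siderophore transporter, and SCW4, a wall glucanase, did not pass the test in hypoxia alone. Without the third wild-type library in air, whose values had to be taken from another table, 15 of the 24 differences passed, and the same 15 passed in all 12 fits that left out 1 library. The 9 others are those of SIT1, SCW4, YJL114W, YJL113W, YHL009W-B, INO1, ITR1, ZRT1 and CHO2. For genes with a lower effect in hypoxia the differences were -2.14 for CWP2, -1.58 for INO1, -1.53 for OPI3, -1.52 for CCW12, -1.50 for SED1, -0.74 for MOG1, -0.70 for TIP1, -0.66 for TOH1, -0.63 for ITR1, -0.61 for ZRT1 and -0.60 for CHO2. Since hypoxia and air were tested in tables normalized separately, each effect was taken within its own table.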

How the results depend on the processing

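Counts are given as genes higher and then lower in set4Δ cells. Against 48 and 23 in hypoxia, a replicate block gave 238 and 198, the local FDR on fold changes alone 175 and 115, a minimum change of 1 on the log2 scale 20 and 7, and leaving out library 1 of both genotypes, chosen after the data were seen, 212 and 176. Leaving out 1 library gave 14 to 61 and 3 to 32. Same-numbered libraries correlated at 0.745, 0.732 and 0.034 in their deviations, and set4Δ library 3 correlated at 0.780 with wild-type library 2. Wild-type library 3 lay near 0 (-0.05) on the main axis of these deviations, which leaves little to correlate. These values cannot show whether the numbers pair the samples, and the labels do not say so. Pseudocounts of 0.5, 5 and 10, other scalings, other filters, robust estimation and a fit without trend stayed within 1.5 times of both counts. In air, against 1 and 2, a minimum mean of 50 gave 0 higher, a replicate block 2 higher, and leaving out 1 library 0 to 5 and 1 to 4. For the difference between hypoxia and air, against 59 and 26, the fit without the misaligned column gave 19 and 9, and leaving out 1 library 19 to 80 and 9 to 41. Among the lists, leaving out genes that are mostly repeated left 1 PAU gene and 6 higher genes within 40 kb of an end. Without library 1 in both genotypes, 18 PAU genes and 4 ergosterol genes were higher, 7 wall mannoproteins and 8 phospholipid genes were lower, and 51 genes within 40 kb were higher. For 24 named fold changes, 456 values under alternatives gave 406 on the same side of the threshold, 50 no longer past it, of which 46 left out 1 library, and 0 reversed. Planned count tests with edgeR and DESeq2 were not run.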
